A study of Mus musculus with 7 samples.

Results

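The 36 genes described here are the cyclins, the cyclin-dependent kinases (CDKs) they activate, the enzymes that switch these kinases on and off, and the E2F and Rb families of the mouse. They were taken by gene symbol from the 46603 genes counted in 7 RNA-seq libraries of tumors, and all 36 symbols were found. By role they are 5 members of G1, the phase before DNA is copied (Ccnd1, Ccnd2, Ccnd3, Cdk4 and Cdk6), 8 of the entry into and passage through S phase (Ccne1, Ccne2, Ccna1, Ccna2, Cdk2, Cdc25a, Skp2 and Cks1b), 9 of G2 and mitosis (Ccnb1, Ccnb2, Ccnf, Cdk1, Cdc25b, Cdc25c, Wee1, Pkmyt1 and Cks2), 13 of the E2F, DP and Rb families, and Cdk7, the CDK-activating kinase.

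The tumors grew in female Balb/c nude mice, aged 16 weeks, that were injected with mouse embryonic fibroblasts (MEFs) and killed at day 30 according to the sample descriptions. NM1, nuclear myosin 1, is an isoform of the myosin gene Myo1c. KO tumors came from MEFs in which NM1 was removed with CRISPR/Cas9. KO + NM1 tumors came from the same knockout MEFs, which carry the deletion too, after a lentivirus returned NM1 with HA and V5 tags. These cells were selected with neomycin and picked as single clones. According to the sample descriptions a KO tumor and a KO + NM1 tumor were each cut into 4 pieces, and 3 KO and 4 KO + NM1 pieces were sequenced, so that every SD and p-value here covers the spread between pieces of a tumor and no spread between mice or clones. The fold changes are KO minus KO + NM1 on the log2 scale.

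Cyclins are the regulatory subunits of CDKs. The D-type cyclins with Cdk4 and Cdk6, and then cyclin E with Cdk2, phosphorylate the pocket proteins Rb1, Rbl1 (p107) and Rbl2 (p130), which releases E2F transcription factors. E2F factors bind DNA with a DP partner and drive genes of DNA synthesis and of the cell cycle itself. Cyclin A follows in S phase, and B-type cyclins with Cdk1 take the cell into mitosis. In resting cells Rbl1 or Rbl2 joins E2f4 and the MuvB complex to form DREAM, which holds cell cycle genes down, and MuvB binds the cell cycle homology region, a short TTTGAA-type element near the start of many mitotic genes.

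Promoters were found for 26 of the 36 members among the RefSeq promoters of GRCm38.p6, each running from 250 bases before a start site to 50 after it. Both strands were searched for 3 sets of letters. They were TTTGAA of the cell cycle homology region, the E2F letters TTTCCCGC, TTTCGCGC, TTTGCCGC or TTTGGCGC, and CCAAT, the box bound by NF-Y. Matches of different sets can share at most 1 base. TTTGAA was present for 9 of the 26 members (34.6%) and for 20.2% of all 27025 genes in the promoter table. The E2F letters were present for 8 of 26 members (30.8%) and for 2.60% of all genes, and CCAAT for 16 of 26 (61.5%) and for 41.1% of all genes. Of the 6 mitotic members with a promoter, 6 held CCAAT, 3 held TTTGAA and 1 held the E2F letters. Of the 6 S members 5 held CCAAT, 2 held TTTGAA and 2 held the E2F letters, and of the 10 members of the E2F, DP and Rb families 4 held CCAAT, 4 held TTTGAA and 5 held the E2F letters. Among the 3 G1 members with a promoter, Ccnd3, Cdk4 and Cdk6, CCAAT was found for 1 and neither of the other sets for any. These counts describe letters in a window and not binding. Only the exact letters were searched, so other forms of the cell cycle homology region were not counted.

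The last 150 bases before the start site are shown for 7 members that differ in these letters, written 5′ to 3′ in the direction of the gene, with the searched letters in capitals on either strand. The promoters of Cdk1 (chr10:69352913-69353062, minus strand), Ccnb2 (chr9:70421555-70421704, minus strand), Ccnf (chr17:24251410-24251559, minus strand) and Ccnb1 (chr13:100786487-100786636, minus strand) are from mitotic members. Those of the mitotic members Cdc25b and Cks2 are not shown. Those of Cdc25a (chr9:109875429-109875578, plus strand) and Rbl1 (chr2:157204535-157204684, minus strand) stand for members with the E2F letters. That of Cdk4 (chr10:127063385-127063534, plus strand) stands for a G1 member with none of the 3 sets.
Cdk1: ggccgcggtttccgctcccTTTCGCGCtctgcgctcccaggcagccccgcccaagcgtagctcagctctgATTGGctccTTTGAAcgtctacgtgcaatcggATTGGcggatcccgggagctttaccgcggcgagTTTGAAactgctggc
Ccnb2: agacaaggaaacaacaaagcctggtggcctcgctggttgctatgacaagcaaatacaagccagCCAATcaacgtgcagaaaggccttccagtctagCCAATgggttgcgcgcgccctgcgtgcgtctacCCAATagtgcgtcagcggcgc
Ccnf: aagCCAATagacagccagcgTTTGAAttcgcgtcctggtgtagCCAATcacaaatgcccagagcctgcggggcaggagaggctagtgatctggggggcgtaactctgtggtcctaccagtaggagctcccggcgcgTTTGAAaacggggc
Ccnb1: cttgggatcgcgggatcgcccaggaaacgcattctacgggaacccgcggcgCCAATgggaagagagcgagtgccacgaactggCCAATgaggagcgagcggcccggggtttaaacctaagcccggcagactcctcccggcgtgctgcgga
Cdc25a: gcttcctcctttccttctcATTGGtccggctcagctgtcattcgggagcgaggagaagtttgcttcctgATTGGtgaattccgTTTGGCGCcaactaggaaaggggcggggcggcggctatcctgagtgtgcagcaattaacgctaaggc
Rbl1: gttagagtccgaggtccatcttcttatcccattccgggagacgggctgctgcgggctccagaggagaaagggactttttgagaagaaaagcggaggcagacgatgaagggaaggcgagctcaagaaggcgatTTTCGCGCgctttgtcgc
Cdk4: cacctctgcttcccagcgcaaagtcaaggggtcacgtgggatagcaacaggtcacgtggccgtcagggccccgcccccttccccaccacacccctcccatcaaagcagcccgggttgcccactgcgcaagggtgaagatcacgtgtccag
Positions are counted back from the start site, with -1 as the last base shown. In Cdk1 TTTGAA began at -71 and -15 and the E2F letters at -131, and in Ccnf TTTGAA began at -130 and -14. In Ccnb2 CCAAT began at -87, -54 and -21. Its TTTGAA matches lay outside the bases shown, at -167 and just past the start site. In Ccnb1 CCAAT began at -99 and -67. The E2F letters began at -67 in Cdc25a and at -18 in Rbl1.

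Libraries held 24088309 to 28326568 counts, and 3 counts corresponded to 0.0991 to 0.148 CPM, the count relative to the TMM-scaled size of the library. On log2 CPM, the correlation was 0.966 to 0.977 between KO pieces and 0.977 to 0.986 between KO + NM1 pieces 02, 03 and 04, but 0.855 to 0.861 between KO + NM1 piece 01 and the other 3. The pieces also differed in what tissue they held. Over 8 markers of white adipocytes the summed level was 47.6 to 201 CPM in KO and 4012 to 30220 CPM in KO + NM1 pieces, and 8 of 8 were lower in KO. Over 8 markers of skeletal muscle it was 2337 to 19179 CPM in KO and 6.42 to 25.3 CPM in KO + NM1 pieces, and 8 of 8 were higher in KO, with Myh4 and Ckm at 3 counts or fewer in every KO + NM1 library. The 5 endothelial markers fell (161 to 180 against 878 to 1159 CPM in sum). Of 5 macrophage markers 4 rose (1684 to 1909 against 433 to 2221 CPM in sum). The 8 fibroblast markers summed to 9649 to 15647 and 3508 to 12589 CPM, with Vim higher and Pdgfra and Pdgfrb lower. They do not tell the injected fibroblasts from those of the host. Summed keratinocyte markers ranged over 2.87 to 1044 and 56.0 to 420 CPM. The 5 B and plasma cell markers summed to 3563 CPM in KO + NM1 piece 01 and to 3.08 to 14.4 CPM in pieces 02, 03 and 04 (8.90 to 38.4 CPM in KO), and 0 of 5 passed the test. Mitochondrially encoded genes took 1.81% to 2.14% of counts in KO and 5.11% to 18.5% in KO + NM1 pieces. The part of these differences in the values of the cell cycle genes was not tested. Myo1c, which is counted here as a whole gene with all its isoforms, stood at 303 ± 12.1 CPM in KO and 408 ± 23.1 CPM in KO + NM1 pieces (SD), with every KO piece below every KO + NM1 piece (log2 fold change -0.43, SE 0.132, adjusted p = 0.0310). That call was lost without KO piece 01, 02 or 03 or KO + NM1 piece 02, with an adjusted p of 0.0508, 0.0720, 0.0647 and 0.0620, and with library size alone (-0.25, adjusted p = 0.297).

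Most members were higher in the KO tumor. Ccna1, the germline cyclin A, had 0 counts in all 7 libraries and was not tested, which allows a level of up to 0.0991 to 0.148 CPM. Of the 35 tested members, 26 were higher in KO past both thresholds, 0.05 for the adjusted p and 2-fold for the size (edgeR quasi-likelihood test, Benjamini-Hochberg over 16887 genes), where 17.1% of all tested genes passed. Ccnd2 was the 1 member lower in KO, where 20.3% of all genes passed. Tfdp2 and Cdk7 were higher and Ccnd3 and Rb1 lower by less than 2-fold, so that by the adjusted p alone 28 members were higher and 3 lower, against 25.7% and 24.5% of all genes. E2f2, E2f5, E2f6 and Rbl2 did not pass. The 3 KO pieces all exceeded the 4 KO + NM1 pieces for 28 members and all fell short of them for 3, which was the case for 30.5% and 26.4% of all genes. Without KO + NM1 piece 01 the number higher was 27, with E2f2, and the number lower 2, with Rb1. In pieces of whole tissue, fewer dividing cells and less RNA of these genes per cell cannot be told apart.

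The mitotic members had the largest median log2 fold change, 4.41, with 9 of 9 higher. The 7 tested S members, 7 of 7 higher, had a median of 2.41, the 5 G1 members a median of 2.06 with 3 higher and 1 lower, and the 13 members of the E2F, DP and Rb families a median of 1.42 with 7 higher. Over all tested genes the median was -0.0017. The lists overlapped. Cdc25b, Pkmyt1 and Wee1 (1.56, 1.80 and 2.25) lay below the S median. Ccna2, E2f7 and E2f8 (5.83, 4.60 and 5.90) lay above the mitotic median. The medians are descriptions of these lists and were not tested against each other.

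**Figure D1:**
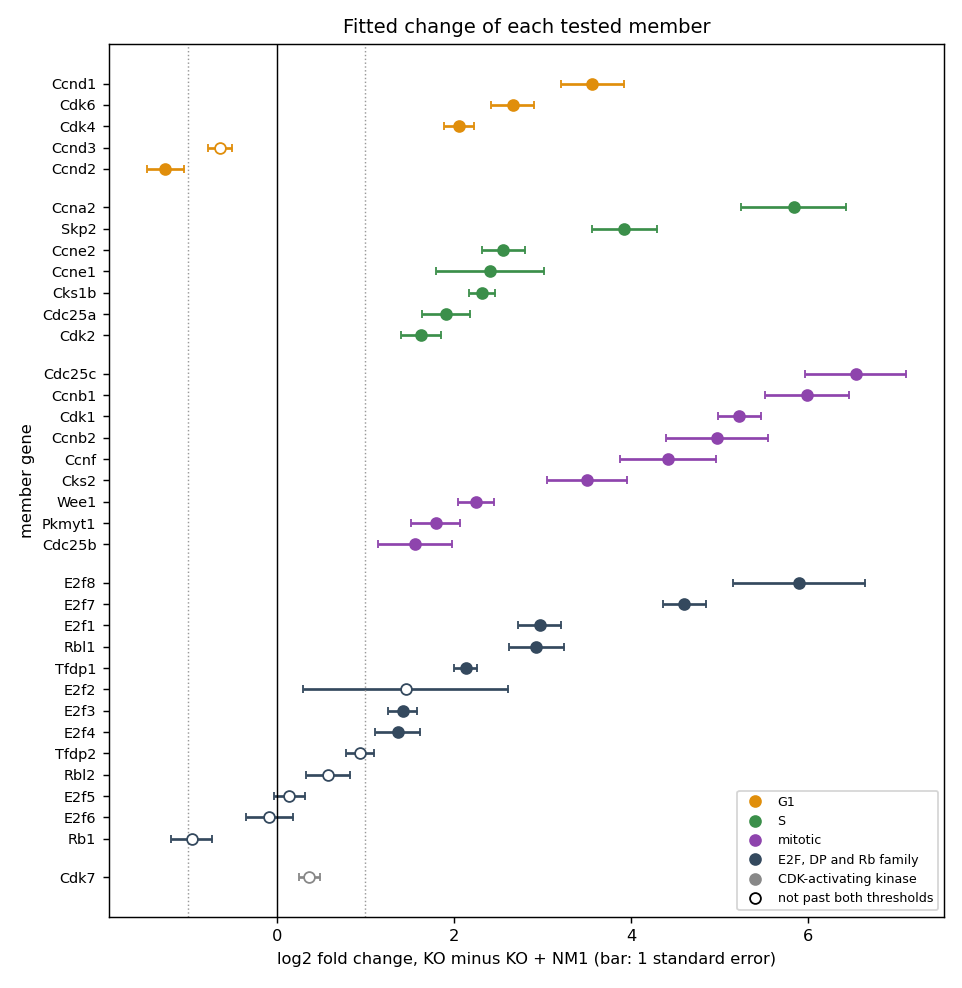
Fitted log2 fold change, KO minus KO + NM1, of the 35 tested members by role on the horizontal axis, with bars of 1 standard error. Filled points are the 27 members past both thresholds and dotted lines mark a 2-fold change. The mitotic members reach from 1.56 to 6.54, while Ccnd2, Ccnd3, Rb1 and, just barely, E2f6 lie left of 0.

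Among the G1 members the D-type cyclins moved in opposite directions. Ccnd1 encodes cyclin D1, the D-type cyclin that growth signals induce in fibroblasts. Its level was 767, 469 and 535 CPM in KO pieces 01 to 03 and 78.7, 33.9, 32.8 and 54.6 CPM in KO + NM1 pieces 01 to 04. The lowest KO piece stood far above the highest KO + NM1 piece (log2 fold change 3.56, SE 0.358, adjusted p = 0.000685). Ccnd2, for cyclin D2, read 33.5, 48.6 and 48.2 CPM in KO and 77.8, 122, 107 and 108 CPM in KO + NM1 pieces. The order of the groups was the reverse of that of Ccnd1 (-1.26, SE 0.207, adjusted p = 0.00312). Ccnd3, for cyclin D3, had 80.1, 82.9 and 81.8 CPM in KO and 138, 139, 122 and 109 CPM in KO + NM1 pieces, again with every KO piece lower but by less than 2-fold (-0.64, adjusted p = 0.00723, and 0.0743 with library size alone).

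Both kinases of the D-type cyclins rose. Cdk4 measured 433, 387 and 369 CPM in KO and 116, 90.6, 79.4 and 95.2 CPM in KO + NM1 pieces (2.06, SE 0.166, adjusted p = 0.000351). Cdk6 measured 187, 142 and 153 CPM in KO and 35.9, 18.2, 22.1 and 25.0 CPM in KO + NM1 pieces (2.66, SE 0.245, adjusted p = 0.000506). For neither kinase did the groups overlap. Tspan31 overlaps 19.7% of the exon bases of Cdk4 on the opposite strand. Reads there may have been counted for the wrong gene or for neither. Tspan31 itself was at 77.2 ± 3.31 and 49.0 ± 7.61 CPM. The same holds for Ccnd1 and LTO1 (23.4% of exon bases), which was at 25.0 ± 0.363 CPM in KO and 30.9 ± 2.31 CPM in KO + NM1 pieces.

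**Figure D2:**
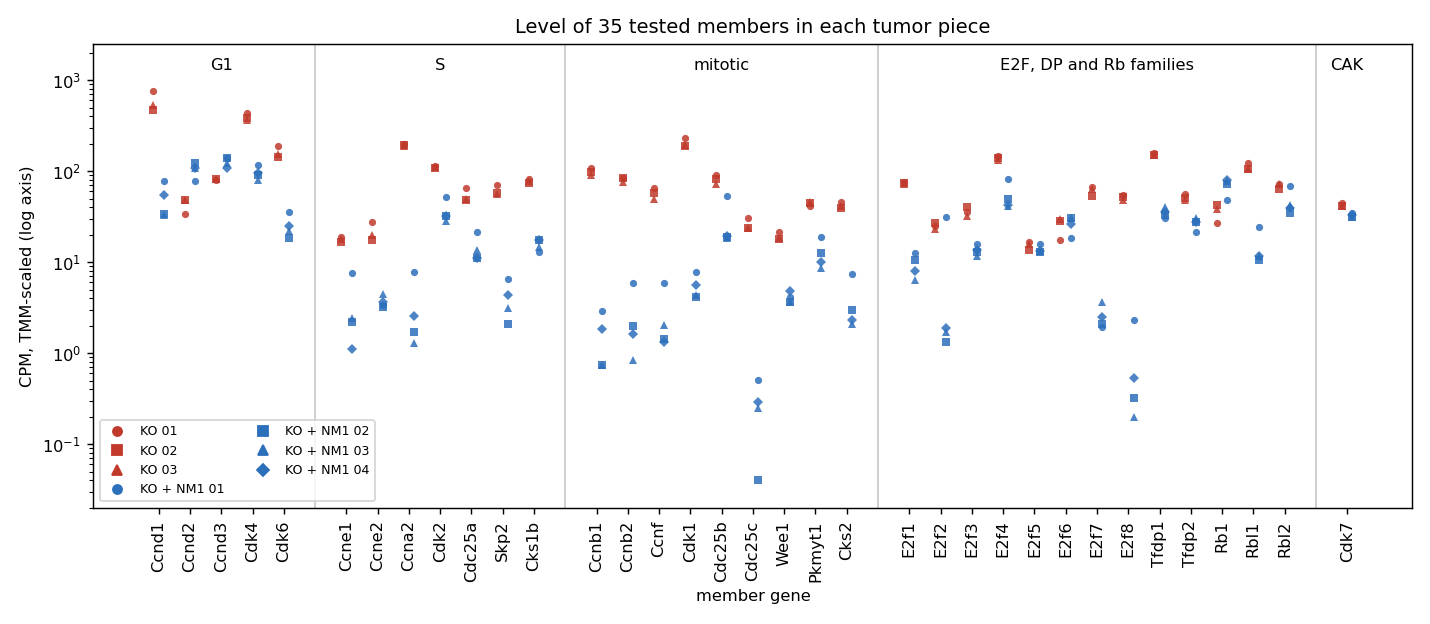
Level of each tested member in the 3 KO pieces (red) and the 4 KO + NM1 pieces (blue), in CPM on a log axis, with members ordered by role and a marker shape for each piece. The KO pieces lie above the KO + NM1 pieces for all 16 tested S and mitotic members, and KO + NM1 piece 01 (blue circles) is often the highest of its group.

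The S members rose together, and cyclin A2 by the most. Ccna2, which is made in S phase and G2, reached 200, 192 and 188 CPM in KO against 7.88, 1.71, 1.28 and 2.59 CPM in KO + NM1 pieces. Its log2 fold change was 5.83 (SE 0.592, adjusted p = 0.000909) with all pieces and 6.56 without KO + NM1 piece 01, the highest of its group. Exosc9 overlaps 12.5% of the exon bases of Ccna2 on the other strand and was at 46.9 ± 5.45 and 18.1 ± 2.13 CPM.

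The E-type cyclins, which start S phase with Cdk2, were both higher in KO. Ccne1 was at 18.7, 16.7 and 18.1 CPM in KO and at 7.66, 2.20, 2.42 and 1.11 CPM in KO + NM1 pieces (2.41, SE 0.608, adjusted p = 0.0154). The call of Ccne1 was narrowly lost with fewer KO pieces. Its adjusted p was 0.0533 without KO piece 01 and 0.0510 without KO piece 03. Over all genes, the number called higher fell from 2882 to 2174, 2358 and 2276 without KO pieces 01, 02 and 03. The log2 fold change of Ccne1 was 3.10 without KO + NM1 piece 01, the highest of its group. Ccne2 read 28, 17.5 and 19.8 CPM in KO and 3.39, 3.25, 4.50 and 3.62 CPM in KO + NM1 pieces, which are close together (2.56, adjusted p = 0.000517). Their kinase Cdk2 was at 115, 108 and 112 CPM against 51.9, 32.0, 28.6 and 32.0 CPM (1.63, adjusted p = 0.00142). This was the smallest change among the S members.

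The phosphatase Cdc25a, which removes inhibitory phosphates from Cdk2, had 65.6, 47.9 and 48.9 CPM in KO and 21.5, 11.2, 13.7 and 11.2 CPM in KO + NM1 pieces (1.91, adjusted p = 0.00170). Skp2 and Cks1b act together in the ubiquitin ligase that removes the CDK inhibitor p27. Skp2 stood at 70.4, 57.4 and 56.1 CPM in KO and at 6.53, 2.07, 3.11 and 4.40 CPM in KO + NM1 pieces (3.92, adjusted p = 0.000587). Cks1b stood at 82.6, 74.1 and 78.4 CPM in KO and at 13.1, 17.5, 14.7 and 17.6 CPM in KO + NM1 pieces (2.32, SE 0.149, adjusted p = 0.000227). For Cks1b, unlike for Ccna2 and Skp2, KO + NM1 piece 01 was the lowest of its group. Its retrocopy Cks1brt held at most 1 count in a library. Reads that match both genes may have been counted for neither, so this count cannot show how many were lost.

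The kinase and the cyclins of mitosis were low in all KO + NM1 pieces. Cdk1, the kinase that drives entry into mitosis, was at 230, 189 and 195 CPM in KO and at 7.84, 4.11, 4.35 and 5.59 CPM in KO + NM1 pieces (5.22, SE 0.244, adjusted p = 0.000187). Cyclin B1, from Ccnb1, was at 110, 98.0 and 90.5 CPM against 2.88, 0.732, 0.741 and 1.85 CPM (5.99, SE 0.474, adjusted p = 0.000448). These are 15 to 79 counts in a KO + NM1 library and 2740 to 3293 counts in a KO library. Ccnb2, for cyclin B2, had 85.2, 84.1 and 76.1 CPM in KO and 5.87, 1.99, 0.840 and 1.64 CPM in KO + NM1 pieces (4.97, adjusted p = 0.00122), and 5.63 was its log2 fold change without KO + NM1 piece 01. Ccnf, for cyclin F, a substrate receptor of a ubiquitin ligase, had 64.6, 57.5 and 50.1 CPM against 5.94, 1.42, 2.03 and 1.32 CPM (4.41, adjusted p = 0.00131, and 5.05 without KO + NM1 piece 01). The promoters of Cdk1, Ccnb2, Ccnf and Ccnb1 printed above belong to genes that differed by more than 4 on the log2 scale. That of Ccnb1 holds no TTTGAA in the bases searched, and other forms of the element were not searched. Cdc25b and Cks2, the other mitotic members with a promoter, held no TTTGAA and changed by 1.56 and 3.51. A link between the letters and the change was not tested.

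The enzymes that set the phosphorylation of Cdk1 rose on both sides. Cdc25b and Cdc25c activate it, and Wee1 and Pkmyt1 inhibit it. Cdc25c showed the largest fitted change of the members with all pieces included, with 30.7, 23.6 and 23.5 CPM in KO and 0.511, 0.0407, 0.247 and 0.288 CPM in KO + NM1 pieces, where the libraries held 14, 1, 5 and 7 counts (6.54, SE 0.571, adjusted p = 0.000534). Without KO + NM1 piece 01 it was 6.94, and that of E2f8 was then larger at 7.02. In KO + NM1 pieces 02, 03 and 04 E2f8 held only 8, 4 and 13 counts, so both values rest on low counts. Cdc25b showed the smallest change of the mitotic members, with 89.96, 82.1 and 72.8 CPM in KO and 53.7, 18.7, 18.6 and 19.4 CPM in KO + NM1 pieces (1.56, SE 0.417, adjusted p = 0.0181). Piece 01 lay between the KO pieces and the other KO + NM1 pieces. The adjusted p of Cdc25b was 0.0729, 0.0595 and 0.0528 without KO pieces 01, 02 and 03.

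Wee1 was at 21.5, 18.1 and 18.5 CPM in KO and at 4.19, 3.62, 3.61 and 4.81 CPM in KO + NM1 pieces (2.25, adjusted p = 0.000442). Pkmyt1 was at 41.7, 44.6 and 45.8 CPM in KO and at 19.1, 12.7, 8.70 and 10.1 CPM in KO + NM1 pieces (1.80, adjusted p = 0.00223). Cks2, a small subunit that binds Cdk1, was at 45.5, 39.5 and 41.1 CPM in KO and at 7.37, 3.01, 2.08 and 2.30 CPM in KO + NM1 pieces (3.51, adjusted p = 0.00140). In each of the 3 genes the groups were apart.

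Of the activator E2F factors, E2f1 and E2f3 rose. E2f1, the best known of them, was at 75.5, 74.9 and 71.7 CPM in KO and at 12.8, 10.7, 6.37 and 7.98 CPM in KO + NM1 pieces (2.97, SE 0.242, adjusted p = 0.000379). E2f3 was at 35.7, 40.1 and 32.3 CPM in KO and at 15.7, 13.1, 11.6 and 13.5 CPM in KO + NM1 pieces (1.42, adjusted p = 0.000912). E2f2 was at 25.1, 27.1 and 23.1 CPM in KO and at 31.6, 1.34, 1.73 and 1.89 CPM in KO + NM1 pieces. A single piece decided its test. Piece 01 of KO + NM1 stood above all 3 KO pieces and the other 3 stood far below, which gave a log2 fold change of 1.45 with an SE of 1.15 (adjusted p = 0.326), against 3.80 (adjusted p = 8.81e-06) without that piece. Piece 01 was also the library with 3563 CPM of B and plasma cell markers. Its summed Mki67 and Top2a, which mark dividing cells, were 44.6 CPM. These sums were 7.77 to 16.6 CPM in pieces 02, 03 and 04 and 1015 to 1458 CPM in KO. The part of these cells in the level of E2f2 was not tested.

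**Figure D3:**
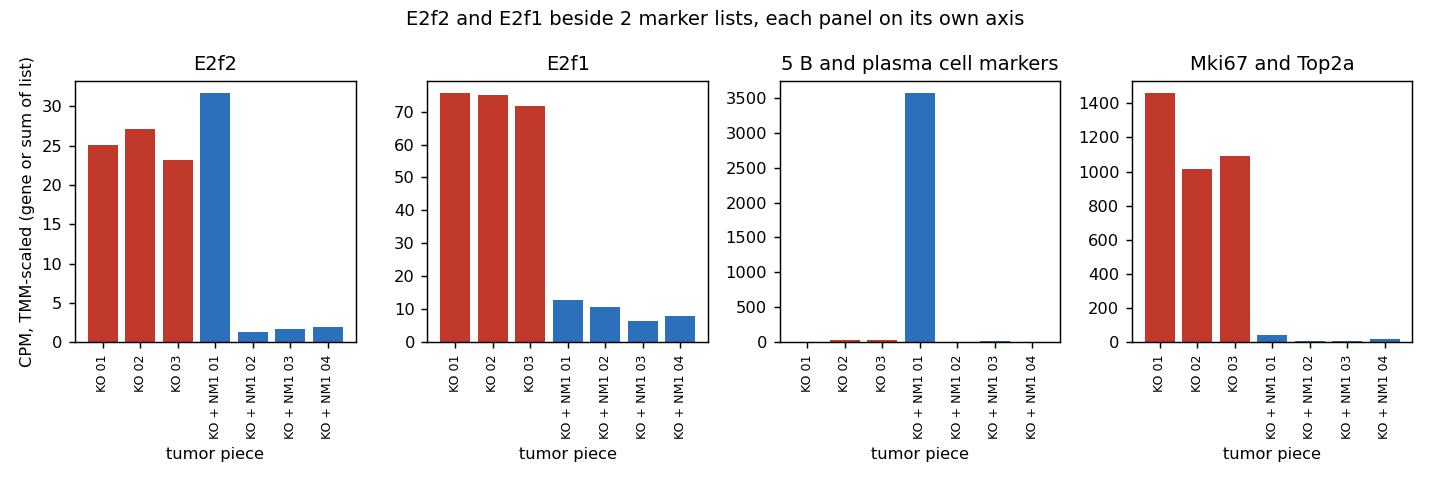
Levels in CPM of E2f2, E2f1, the sum of 5 B and plasma cell markers, and the sum of Mki67 and Top2a in each of the 7 tumor pieces (KO red, KO + NM1 blue), each panel on its own axis from 0. The E2f2 bar of KO + NM1 piece 01, at 31.6 CPM, is the highest. The same piece alone has a high bar for the B and plasma cell markers, and a link was not tested.

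The E2F factors that repress differed widely in their change. The atypical factors E2f7 and E2f8, which bind DNA without a DP partner and repress E2F genes late in the cycle, rose most. E2f7 was at 67.4, 53.5 and 63.5 CPM in KO and at 1.93, 2.12, 3.61 and 2.47 CPM in KO + NM1 pieces (4.60, SE 0.241, adjusted p = 0.000219). E2f8 was at 55.2, 52.1 and 47.7 CPM in KO and at 2.33, 0.325, 0.198 and 0.534 CPM in KO + NM1 pieces (5.90, SE 0.744, adjusted p = 0.00162, and 7.02 without piece 01). Of the factors that work with pocket proteins, E2f4, the E2F of DREAM, was at 146, 139 and 132 CPM in KO and at 81.4, 49.0, 41.9 and 42.5 CPM in KO + NM1 pieces, which did not overlap (1.37, adjusted p = 0.00435).

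E2f5, the close relative of E2f4, was at 16.5, 13.7 and 15.7 CPM in KO and at 15.9, 12.9, 13.1 and 13.3 CPM in KO + NM1 pieces (0.14, SE 0.173, adjusted p = 0.517). E2f6, a repressor that lacks the domain binding pocket proteins, was at 17.4, 28.2 and 29.5 CPM in KO and at 18.5, 30.6, 30.7 and 26.3 CPM in KO + NM1 pieces (-0.08, SE 0.263, adjusted p = 0.812). For both the groups overlapped, and piece 01 of each tumor was the lowest of its group for E2f6 and the highest for E2f5. The sign of either estimate changed with the scaling, E2f5 to -0.01 with upper-quartile factors and E2f6 to 0.12 with library size alone.

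The DP partners, with which E2f1 to E2f6 bind DNA, were both higher in KO. Tfdp1 had 160, 151 and 151 CPM in KO and 30.9, 33.0, 40.1 and 36 CPM in KO + NM1 pieces (2.13, SE 0.131, adjusted p = 0.000225). Tfdp2 had 56.3, 50.1 and 48.0 CPM in KO and 21.7, 28, 30.3 and 27.3 CPM in KO + NM1 pieces, a change just under 2-fold (0.94, SE 0.155, adjusted p = 0.00268).

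The 3 pocket proteins, the repressors of E2F, went separate ways. Rbl1 (p107), itself a gene with the E2F letters in its promoter, was at 122, 106 and 106 CPM in KO and at 24.4, 10.6, 11.8 and 11.7 CPM in KO + NM1 pieces (2.93, SE 0.310, adjusted p = 0.000749). Rb1, the retinoblastoma protein, was at 27.2, 42.6 and 38.1 CPM in KO and at 48.7, 72.2, 78.4 and 80.6 CPM in KO + NM1 pieces, with every KO piece lower (-0.96, SE 0.232, adjusted p = 0.0139). Rbl2 (p130), the pocket protein of resting cells, was at 71.6, 64.0 and 71.6 CPM in KO and at 69.1, 34.8, 42.3 and 39.0 CPM in KO + NM1 pieces (0.58, SE 0.248, adjusted p = 0.0899). Only piece 01 of KO + NM1 reached the range of the KO pieces for Rbl2, and without it the log2 fold change was 0.71 (adjusted p = 0.000885). For Rb1 the log2 fold change passed -1 without KO piece 02 (-1.22), without KO piece 03 (-1.12) and without KO + NM1 piece 01 (-1.22). Lpar6 and Rcbtb2, which overlap 14.9% of the exon bases of Rb1 on the opposite strand, were lower in KO too (-2.23 and -1.20, adjusted p = 0.000805 and 0.0323), and Aktip, which together with Gm45464 covers 21.0% of those of Rbl2, was lower by less than 2-fold (-0.84, adjusted p = 0.0450).

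Cdk7, which phosphorylates the activating loop of the other CDKs and also RNA polymerase II, showed the smallest of the called changes. It was at 44.6, 41.4 and 41.2 CPM in KO and at 35.1, 31.3, 31.7 and 33.2 CPM in KO + NM1 pieces. The KO pieces were all higher, by a log2 fold change of 0.37 (SE 0.117, adjusted p = 0.0336). The call did not hold without KO piece 01, 02 or 03 or without KO + NM1 piece 02, 03 or 04, where the adjusted p was 0.0805 to 0.269, nor with RLE (0.0812) or upper-quartile factors (0.148), without a filter beyond 1 count (0.193) or with a filter of 10 counts in all libraries (0.0523). Its partners cyclin H (Ccnh) and Mnat1 were not called, at -0.0028 (SE 0.160, adjusted p = 0.991) and -0.02 (SE 0.163, adjusted p = 0.938).

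The ratio of 2 members within a piece does not depend on the scaling between libraries. It was computed for 10 pairs as the log2 ratio of counts and compared by a two-sided exact permutation test, whose smallest p is 0.0286 with 3 against 4 pieces. In 8 of the 10 pairs the groups were fully apart, which gives that smallest p of the exact permutation test (0.0357 adjusted over the pairs). The pairs were chosen with earlier results of these data known, and most join a member with a large fold change to one with a small or opposite one, so that this separation is no support beyond the fold changes. Cdk1 to Cdk4, the mitotic against the G1 kinase, was -0.92, -1.03 and -0.92 in KO and -3.88, -4.46, -4.18 and -4.08 in KO + NM1 pieces. The groups differed by 3.19, and every KO + NM1 piece held far fewer Cdk1 counts per Cdk4 count than any KO piece. Ccnb1 to Ccnd1 differed by 2.59, and Ccna2 to Ccnd3, where Ccna2 exceeded Ccnd3 in counts in every KO piece and in no KO + NM1 piece, by 6.84.

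Within the E2F and Rb families the ratios differed as well. E2f1 to E2f4, an activator against a repressor, was -0.95, -0.89 and -0.88 in KO and -2.67, -2.20, -2.71 and -2.41 in KO + NM1 pieces, a difference of 1.59. E2f8 to E2f6 differed by 6.61, and by 7.46 without KO + NM1 piece 01. Rbl1 to Rb1 was 2.17, 1.31 and 1.48 in KO and -0.995, -2.76, -2.73 and -2.78 in KO + NM1 pieces (a difference of 3.97), and Rbl1 to Rbl2 differed by 2.39. The ratio thus changed sign between the tumors for both pairs of pocket proteins. Cdc25c to Cdc25b differed by 5.09. For the remaining pairs the groups overlapped. Ccne2 to Ccne1 was 0.26 ± 0.279 in KO and 0.49 ± 1.20 in KO + NM1 pieces (p = 0.771, exact permutation test, adjusted p = 0.771), and Cks2 to Cks1b was -0.90 ± 0.0353 and -2.27 ± 0.979 (p = 0.143, exact permutation test, adjusted p = 0.159), with KO + NM1 piece 01 at -0.82 beside the KO pieces.

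**Figure D4:**
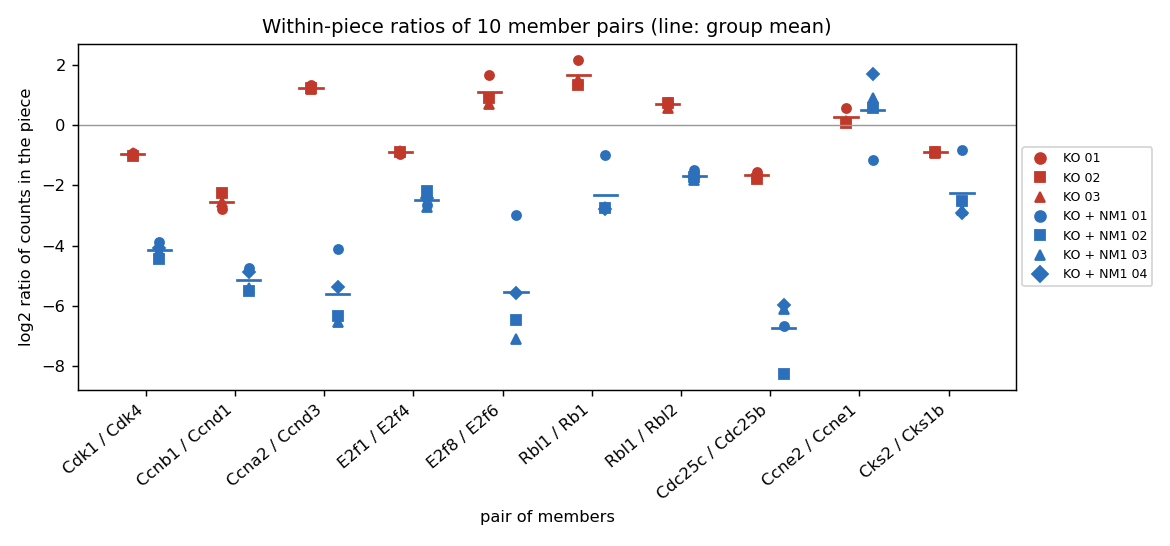
The log2 ratio of counts of 10 pairs of members in each KO (red) and KO + NM1 (blue) piece, with a line at the mean of the group. For the first 8 pairs from the left all KO pieces lie above all KO + NM1 pieces, and for Rbl1 to Rb1 and Rbl1 to Rbl2 the groups lie on opposite sides of 0.

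Levels of different genes were compared per length, as TPM. Counts are divided by the summed exon length of the gene, and every library is brought to the same total. That length joins all annotated exons, 4709 bases for Ccnd1 and 8775 for Ccnd3, so comparisons between genes depend on the annotation. Among the 36 members Ccnd1 and Cdk4 had the highest mean TPM in KO, 435 and 424, and Cdk4 and E2f4 the highest in KO + NM1, 77.7 and 58.8. The D-type cyclins changed in make-up. Ccnd1 supplied 89.6% ± 2.88 of their summed TPM in KO and 28.8% ± 9.90 in KO + NM1 pieces, while Ccnd3 supplied 6.92% ± 1.57 and 40.2% ± 4.26 and Ccnd2 3.52% ± 1.32 and 31.0% ± 7.27. Among the pocket proteins Rbl1 gave 55.1% ± 3.62 in KO and 12% ± 4.77 in KO + NM1 pieces, and Rb1 17.8% ± 4.19 and 58.0% ± 13.4, with KO + NM1 piece 01 at 38.0% and the other 3 at 63.3% to 65.3%. The share of Rbl2 was 27.1% ± 1.45 and 30.1% ± 8.61. So Rbl1 led in each KO piece, Rb1 led in KO + NM1 pieces 02, 03 and 04, and Rbl2, at 42.9%, led in piece 01.

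Among the E2F factors E2f4 had the largest share of TPM in both tumors, 46.7% ± 0.799 in KO and 51.3% ± 3.19 in KO + NM1 pieces. E2f1 came second in KO with 19.4% ± 0.219, against 7.11% ± 1.18 in KO + NM1 pieces, where E2f5 came second with 19% ± 2.94. The share of E2f7 was 5.63% ± 0.644 in KO and 0.723% ± 0.332 in KO + NM1 pieces, and that of E2f8 was 7.83% ± 0.313 and 0.314% ± 0.281. Among Cdk1, Cdk2, Cdk4 and Cdk6, the share of Cdk1 was 21.5% ± 0.662 in KO and 2.88% ± 0.396 in KO + NM1 pieces, while Cdk4 remained the most abundant at 63.3% ± 1.02 and 77.3% ± 2.32. The shares are descriptions and were not tested.

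**Figure D5:**
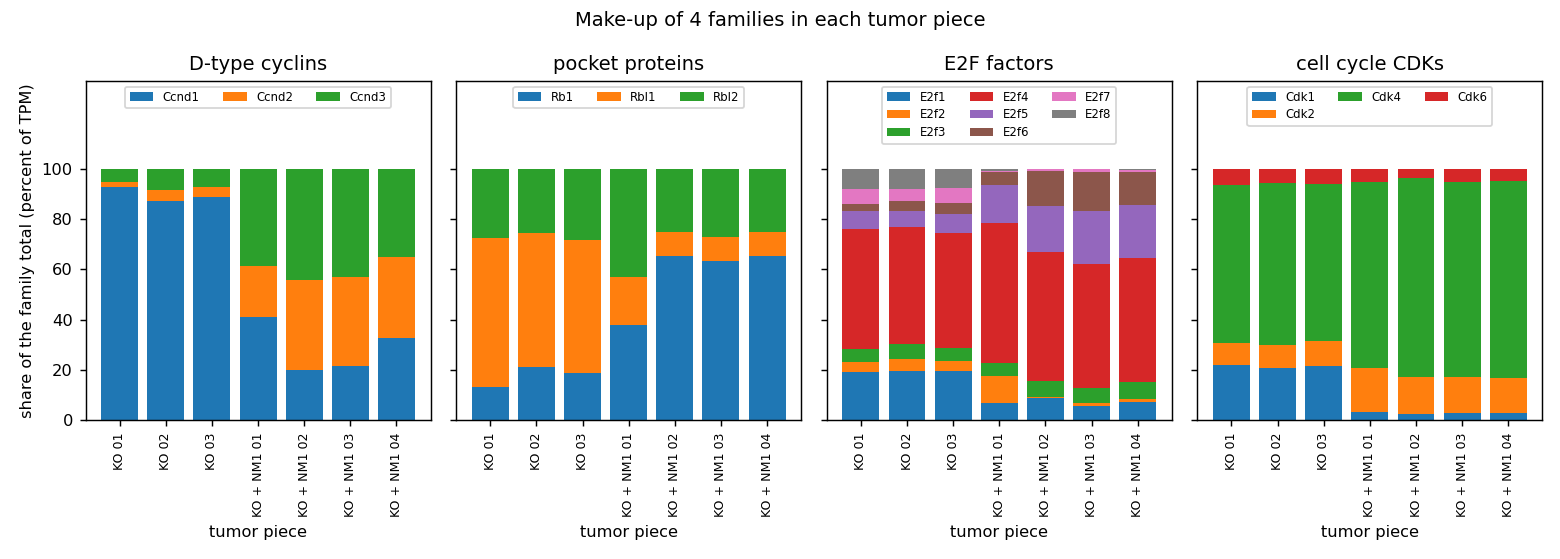
Share of each gene in the summed TPM of its family, in percent, for the D-type cyclins, the pocket proteins, the E2F factors and the cell cycle CDKs in each of the 7 tumor pieces. Ccnd1 and Rbl1 fill most of their families in the 3 KO pieces but not in the 4 KO + NM1 pieces, and the thin band of Cdk1 in KO + NM1 pieces is 2.88% on average.

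The members were more even among KO pieces. The median coefficient of variation over the 35 tested members was 8.43% in KO and 31.2% in KO + NM1 pieces, and it was larger in KO + NM1 for 31 of 35. KO piece 01 was the highest KO piece for 28 members. It was also the KO piece with the least skeletal muscle marker RNA, 2337 CPM against 15414 and 19179 CPM. In KO + NM1, piece 01 was the highest for 25 of 35 members and for 21 of the 26 members called higher in KO. It held the least adipocyte marker RNA of its group, 4012 CPM against 21145 to 30220 CPM, and the most B and plasma cell marker RNA. The part of these tissues in the spread was not tested. None of these counts was computed over all tested genes, so none shows a trait particular to the members. On all tested genes KO + NM1 piece 01 correlated at 0.855 to 0.861 with its group, against 0.966 to 0.977 among KO pieces.

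Genes that work with the members were taken from lists chosen by function, and their counts are to be read against the 17.1% of all tested genes called higher and the 20.3% called lower. Of 7 genes of the MuvB complex and its partners 4 were higher and 1 lower. Mybl2 (B-Myb), which turns MuvB into an activator of mitotic genes, showed the largest rise of the list, with 121 ± 11.7 CPM in KO and 3.17 ± 1.79 CPM in KO + NM1 pieces (5.25, adjusted p = 0.000400), and the MuvB subunit Lin52 was lower with 8.07 ± 1.19 and 16.2 ± 2.02 CPM (-1.001, adjusted p = 0.00662). Rrm2, a subunit of ribonucleotide reductase and an E2F target, was at 83.0 ± 5.01 CPM in KO and 5.11 ± 4.40 CPM in KO + NM1 pieces (4.02, adjusted p = 0.00176). Of 7 partners in ubiquitin ligases 3 were higher, and Cul1 and Rbx1 were higher by less than 2-fold. Cdc20, which activates the anaphase-promoting complex, rose most, with 88.7 ± 19.1 against 5.24 ± 4.47 CPM (4.08, adjusted p = 0.00211).

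The remaining lists held further cyclins and CDKs. Of 12 that act in transcription, 1 was higher, Cdk12, a kinase of the elongating RNA polymerase II, at 72.3 ± 14.1 against 26.4 ± 9.37 CPM (1.45, adjusted p = 0.00532), Ccnt1 was higher and Ccnl2 lower by less than 2-fold, and 9 were not called, and the median of the 12 was 0.04. Of 10 other cyclins and CDKs 1 was higher and 2 lower with a median of -0.15. Cdk18 rose (1.15, adjusted p = 0.0155), and Ccng2, a cyclin linked to cell cycle arrest, fell most, at 27.0 ± 2.48 CPM in KO and 92.8 ± 15.6 CPM in KO + NM1 pieces (-1.78, adjusted p = 0.000551). The difference between these lists and the members was not tested.

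Another gene overlaps exons on the opposite strand for 17 of the 36 members, over more than 10% of the exon bases for 9. The kit and the counting are not stated to use strand, so reads of these members and of their partners cannot be told apart in the shared bases. Such reads may have been counted for either gene or for neither. The partners of the 2 members with very low counts in KO + NM1, Gm3550 over 12.7% of Cdc25c and Gm2788 over 11.2% of E2f8, were themselves near 0 there, at 0.0660 ± 0.0799 and 0.0215 ± 0.0253 CPM. Ints8, over 17.4% of Ccne2, was at 40.9 ± 9.18 CPM in KO and 21.8 ± 3.74 CPM in KO + NM1 pieces (0.91, adjusted p = 0.00968).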

How the data were processed

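Tumors of NM1 KO and KO + NM1 MEFs were profiled by RNA-seq, 3 and 4 pieces. Per the labels, the authors used Trimmomatic 0.36, HISAT2 2.0.4 on GRCm38, SAMtools 0.1.19 and HTSeq, and deposited raw read counts of 46603 genes. The annotation release and strand option are not given in the sources used here. The thresholds are the authors' own, whose test was not named.

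Symbols came from GENCODE M21. With edgeR 4.0.16 in R 4.3.3, 16887 genes passed filterByExpr (minimum count 10), were scaled by TMM and tested by quasi-likelihood without covariates. SEs use the fit's information matrix and moderated dispersion. CPM is the count over the TMM-scaled library. Ratios add 0.5 to each count, and the exact permutation test (SciPy 1.17.1) takes the absolute difference of means. Totals of 24088309 to 28326568 counts set the precision, which for low values is counting error over a floor of 3 counts. Pieces of the same tumor differed by a chi-square of at least 35.2 per degree of freedom, so none was a repeat library.

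All members are described. From each list the largest rise and fall past both thresholds are named, and other list genes were named after their values were seen. The counts of the list of E2F targets are not reported here. The members, lists, pairs and motifs were chosen with earlier results of these data known. The scripts were first checked on simulated counts, of which no value is given. Alternatives were other scalings and filters, DESeq2 1.42.0, voom of limma 3.58.1, glmTreat, a replicate block and leaving out each library.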

Additional observations from a re-analysis of the deposited data

Results flagged for a closer look

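Among the 4 KO + NM1 pieces, piece 01 stood apart from the other 3 for 4 members and 1 ratio, as judged by the gap to its nearest neighbour over the whole range of the group (Dixon's ratio on log2 values, above its critical value at 95% for 4 samples). The ratio was 0.959 for Cdc25b, 0.894 for E2f2, 0.857 for E2f5, 0.872 for Rbl1 and 0.971 for the ratio of Rbl1 to Rb1, and in each case piece 01 was the highest. In all 45 values were examined in this way, of which chance flags about 1 in 20, or 2.25. The group of 3 KO pieces was not examined in this way.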

How the results depend on the processing

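The number of members higher in KO was 26. It stayed between 24 and 27 with other scalings, filters, DESeq2, voom or 1 library left out. It was 23 when glmTreat required more than 2-fold. With a filter of 10 counts in all libraries it was 24 of 33 tested members, as Cdc25c and E2f8 were not tested there. The number lower in KO was 1 and became 2, Rb1 joining Ccnd2, with RLE factors, upper-quartile factors, no filter beyond 1 count, a filter of 10 counts in all libraries or DESeq2, was 0 with glmTreat, and was 1 to 2 with 1 library left out. The median of the mitotic members, 4.41, was 5.12 with voom and 3.91 to 4.54 with the other settings on all libraries. The 3.91 came with the filter of 10 counts in all libraries, over 8 members without Cdc25c. E2f5 reversed to -0.014 with upper-quartile factors and ranged from -0.027 to 0.11 with 1 library left out, and E2f6 reversed to 0.12 with library size alone and ranged from -0.35 to 0.0074. The cause was not tested. Voom called E2f2 (3.93) and Rbl2 (0.88), and Ccnd3 lost its call with library size alone (adjusted p = 0.0743). Of the settings tried for single members and Myo1c, 507 kept direction and side of the threshold, 23 lost a call, 4 gained one and 4 reversed.

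The scaling moved the median log2 fold change of all genes to -0.10 (RLE), -0.16 (upper-quartile) and 0.17 (library size alone), and with voom and its sample weights it was 0.12. All-gene calls were 2882 higher and 3424 lower, and 1707 and 2074 with glmTreat. With the replicate block they were 2437 and 2493, and the members 26 and 1, with Cdk7 (adjusted p = 0.136) and Myo1c (-0.46, adjusted p = 0.126) no longer called. Same-numbered pieces correlated at 0.08, 0.10 and -0.02, so the numbers were not taken to pair them. Depth limits mainly Cdc25c and E2f8, with 1 to 14 and 4 to 64 counts in KO + NM1 libraries.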
